A study of Mus musculus with 8 samples.

Results

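The Hedgehog pathway genes described here are 9: the ligands Shh and Ihh, the ligand-binding proteins Ptch1 and Hhip, the membrane transducer Smo, the cytoplasmic inhibitor Sufu and the transcription factors Gli1, Gli2 and Gli3. They were taken by gene symbol from the annotation of the array, and each of the 9 had 1 probe set of its own, out of 30702 genes measured. Total RNA of forepaw skin from 8 C57Bl/6 mice, aged 8 weeks, was hybridised to 1 Affymetrix array per mouse. The 4 Krt16 null mice carried bacterial LacZ in place of the coding sequence of Krt16, a type I keratin of paw and stressed epidermis, and their skin was labelled as lesion. The 4 Krt16 WT littermates had skin labelled as normal, and each genotype held 2 males and 2 females. Genotype and lesion cannot be told apart, nor, in whole skin, can fewer cells of a type and less RNA per cell.

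Hedgehog ligands are secreted proteins that bind Ptch1 and thereby release Smo, which Ptch1 otherwise holds inactive. Active Smo acts at the primary cilium, where it stops Sufu and protein kinase A from turning Gli2 and Gli3 into repressors. Gli1, Ptch1 and Hhip are themselves transcribed in response to the pathway, so their RNA is widely read as a measure of its output, and Hhip and Ptch1 bind ligand and restrain the signal. In skin the pathway is best known for growth of the hair follicle, where Shh comes from the epithelium and acts on both epithelium and dermis, and for basal cell carcinoma.

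Signals are RMA values on the log2 scale. Each difference is the null mean less the WT mean on that scale, with its standard error (SE). Calls were made where the Benjamini-Hochberg adjusted p of the limma fit over all genes was under 0.05. Across genes, pairs of arrays within a genotype had r = 0.992 to 0.997, and pairs between genotypes 0.984 to 0.990. Krt16 itself lay between 6.83 and 6.99 in the null arrays and between 7.05 and 9.66 in the WT arrays (difference -1.45, SE 0.44, adjusted p = 0.0615), so it was lower in every null array without passing the threshold. Whether its probes lie inside the replaced sequence was not examined. The interfollicular keratinocyte list (Krt5, Krt14, Krt1, Krt10 and related genes) had a mean signal of 10.84 to 11.09 over the 8 arrays, far above the negative controls in both genotypes. Of its 9 genes, 2 fell (22.2%, beside 5.98% of all genes): Krt2 by 0.60, and Lor by 0.35. Lor lost its call in 4 of 8 fits without 1 array (the array numbered 2 of either sex and genotype).

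The design asks which Hedgehog pathway genes changed in lesional paw skin of null mice. Hhip, Ptch1, Gli1 and Gli2 fell, and no member rose. Hhip fell by 1.38 on the log2 scale, while Ptch1, Gli1 and Gli2 fell by 0.37, 0.39 and 0.30. Gli3 differed by -0.23 without passing the threshold, and Smo, Sufu, Shh and Ihh differed by -0.17 to 0.05. The 4 calls are 44.4% of the members, beside 5.98% of all genes called lower, 7.07% called higher and 13.1% called in either direction. As the members were chosen with earlier results of these data known, these shares are a description and no test. Among the genes whose mean exceeded the highest negative control median, 9.84% were called lower. The median difference of the 9 members was -0.23 and that of all genes 0.01. The arrays of both genotypes were fully separated in 5 of 9 members, and in 18.9% of all genes.

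**Figure D1:**
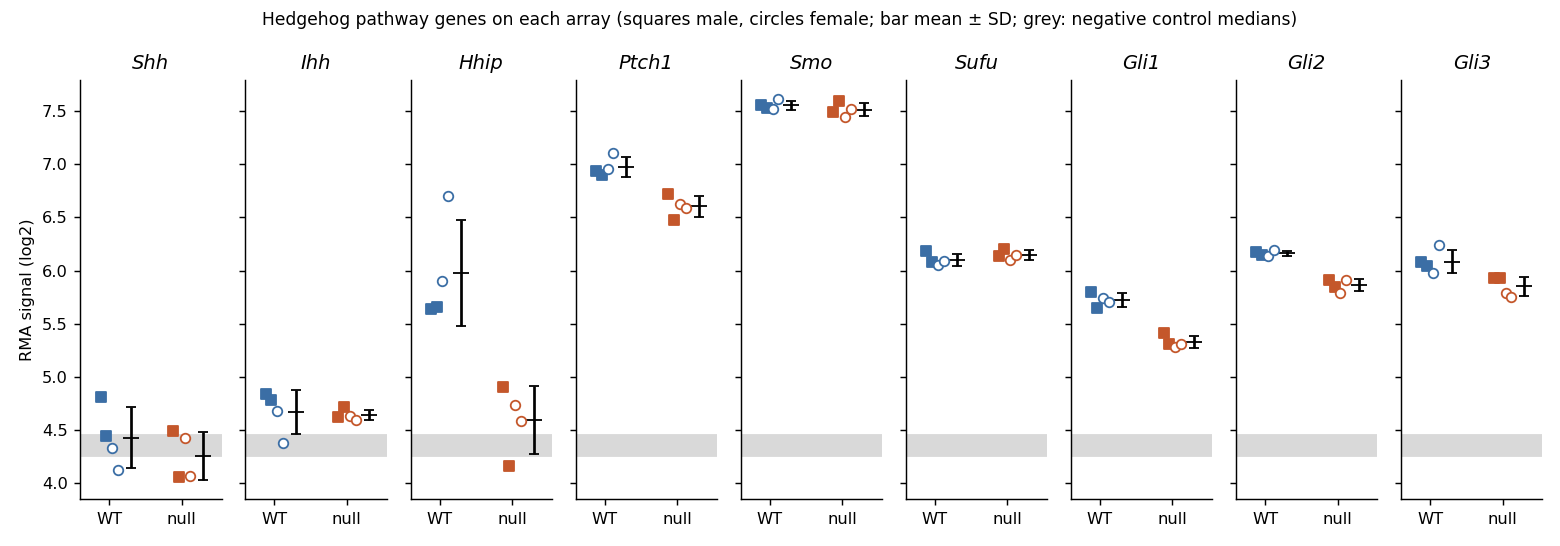
RMA signal (log2, vertical axis) of each gene on each of the 8 arrays, WT in blue and null in orange, squares for males and circles for females, with mean ± SD of the 4 arrays beside the points; the grey band spans the negative control medians of the arrays, 4.26 to 4.46. Null points lie under all WT points for Hhip, Ptch1, Gli1, Gli2 and Gli3, and the groups overlap for Shh, Ihh, Smo and Sufu; heights are not comparable between genes.

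Hhip, a membrane-anchored protein that binds and sequesters Hedgehog ligands, gave 5.64 and 5.65 in male WT arrays and 5.90 and 6.70 in female WT arrays. Male null arrays had 4.90 and 4.16, female null arrays 4.74 and 4.59. Female WT 2 was the highest array and male null 2 the lowest, and the lowest WT array still exceeded the highest null array by 0.74. The means were 5.97 ± 0.50 in WT and 4.60 ± 0.32 in null skin (SD, n = 4 each), a difference of -1.38 (SE 0.21, adjusted p = 0.00373), which is 2.60-fold on the linear scale. By size this was the 13th most negative difference among 30702 genes. The null arrays stood between the 46.7th and 61.9th percentile of the negative control probe sets of the same arrays, close to background. Male null 2 lay under their median. The WT arrays stood at percentiles 76.2 to 89.0. The size of the fall, its fold and its rank are therefore not exact. Leaving out female WT 2 brought the difference to -1.17 (adjusted p = 0.00533), and without each of the other arrays in turn it ran from -1.58 to -1.28.

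Ptch1, the Hedgehog receptor, gave 6.94 and 6.90 in male WT arrays and 6.96 and 7.11 in female WT arrays. Male null arrays had 6.72 and 6.48, female null arrays 6.62 and 6.59. As with Hhip, female WT 2 was the highest array and male null 2 the lowest, and the groups were separated by 0.18. The difference was -0.37 (SE 0.07, adjusted p = 0.00911), about 1.29-fold, from 6.97 ± 0.09 in WT to 6.60 ± 0.10 in null skin (SD, n = 4 each).

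Smo, the seven-pass membrane protein that Ptch1 controls, was nearly level. Its WT values were 7.56, 7.53, 7.52 and 7.62 and its null values 7.49, 7.59, 7.45 and 7.52 (males first in each genotype). The ranges overlapped, and the difference was -0.04 (SE 0.05, adjusted p = 0.702) with a 95% interval of -0.17 to 0.08. Sufu, which binds Gli proteins in the cytoplasm and holds them inactive, likewise overlapped, at 6.05 to 6.18 in WT and 6.10 to 6.21 in null skin. It differed by 0.05 (SE 0.05, adjusted p = 0.655; 95% interval -0.07 to 0.16).

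Gli1, a transcriptional activator and target of the pathway, gave 5.80 and 5.65 in male WT arrays and 5.75 and 5.70 in female WT arrays. Male null arrays had 5.41 and 5.31, female null arrays 5.29 and 5.31. The groups were 0.23 apart, more than the spread inside either, with means of 5.72 ± 0.07 and 5.33 ± 0.06 (SD, n = 4 each). The difference was -0.39 (SE 0.06, adjusted p = 0.00359). Among the negative control probe sets of the same arrays, Gli1 stood at percentiles 74.1 to 79.5 in WT and 68.7 to 71.6 in null skin. The size of its fall is therefore not exact either.

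Gli2, the main activator acted on by Smo, gave 6.17 and 6.14 in male WT arrays and 6.13 and 6.19 in female WT arrays. Male null arrays had 5.91 and 5.85, female null arrays 5.79 and 5.91. The WT arrays lay close together, and the highest null array was 0.22 under the lowest of them. The difference was -0.30 (SE 0.05, adjusted p = 0.00828).

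Gli3, whose processed form is the main repressor of target genes, gave 6.08, 6.05, 5.98 and 6.24 in WT arrays and 5.93, 5.93, 5.79 and 5.75 in null arrays, males first. The groups did not overlap, but only 0.05 separated them. The difference of -0.23 (SE 0.07) had an adjusted p of 0.0686 in limma over all genes. With dim genes left out of the test it was called, at adjusted p = 0.0469 with genes above the negative controls and adjusted p = 0.0444 with genes above the median gene. In these 2 tests fewer genes entered the adjustment and the estimate stayed at -0.23.

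Both ligands gave signals close to background. Shh was 4.13 to 4.81 in WT and 4.06 to 4.49 in null skin, and it exceeded the negative control median of its array on 5 of 8 arrays. Its WT values stood between the 42.7th and 61.7th percentile of the negative control probe sets of the same arrays. The difference was -0.17 (SE 0.14, adjusted p = 0.512; 95% interval -0.48 to 0.15). Ihh, better known from cartilage growth, was 4.38 to 4.84 in WT and 4.60 to 4.72 in null skin, above the median of the negative controls on 7 of 8 arrays. It differed by -0.03 (SE 0.08, adjusted p = 0.885; 95% interval -0.21 to 0.16). These intervals hold for the probe signal. So close to background, they set no limit on a change in the RNA of either ligand.

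**Figure D2:**
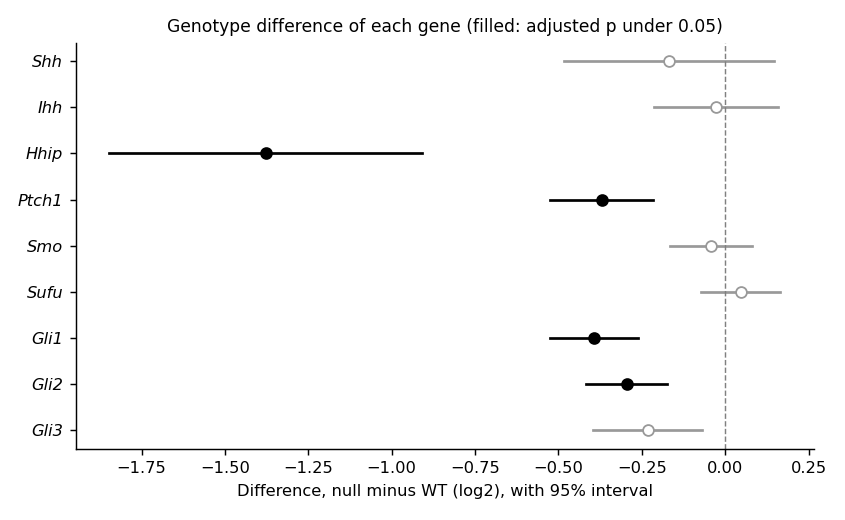
Difference between genotypes (null minus WT, log2, horizontal axis) with its 95% interval for each Hedgehog pathway gene; filled points passed an adjusted p of 0.05. Hhip lies at -1.38 and Ptch1, Gli1 and Gli2 between -0.39 and -0.30, while the intervals of Shh, Ihh, Smo and Sufu include 0.

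Male and female mice gave falls in the same direction for the 4 called members. Hhip differed by -1.64 in females and -1.12 in males, Ptch1 by -0.42 and -0.32, Gli1 by -0.43 and -0.36 and Gli2 by -0.31 and -0.28. Gli3 differed by -0.34 in females and -0.13 in males. In the fit of all 8 arrays with a difference for each sex, Hhip (adjusted p = 0.0272) and Gli1 (adjusted p = 0.044) passed in females. In males Hhip (adjusted p = 0.0922) and Gli1 (adjusted p = 0.0781) did not, nor did Ptch1 and Gli2 in either sex. In fits on the 4 arrays of 1 sex, Hhip instead passed in males (adjusted p = 0.0498) and missed in females (adjusted p = 0.0532), so which sex passed depended on the fit. The difference between the sexes was tested as an interaction in limma. It was called for 0 of 9 members, beside 0.00651% of all genes, and 0 members had an unadjusted p under 0.05. The Hhip interaction was -0.53 (SE 0.40, adjusted p = 0.974). Each sex and genotype held only 2 mice, so a p that misses the threshold does not show that the sexes responded alike.

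Promoter sequences were examined as a feature that the values did not use. RefSeq windows of 250 bases before to 50 after the start site (build GRCm38.p6) matched 7 of the 9 members by symbol: Hhip, Ihh, Ptch1, Smo, Gli2, Gli3 and Sufu. Their GC content ran from 56.3% for Sufu to 76.3% for Ptch1, against a median of 52.7% over all 32851 windows, and 6 of the 7 exceeded the upper quartile of 61.7%. The Gli consensus GACCACCCA, searched on both strands, was found in 0 of the 7 windows and in 0.253% of all windows. Its 8-letter core ACCACCCA was also found in 0 of the 7 and in 1.48% of all. These letters are only absent from this window, which says nothing about Gli binding elsewhere. The GC box GGGCGG, searched on both strands in the 250 bases before the start site, was found in 6 of the 7 (all but Smo) and in 32.7% of all windows.

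The 250 bases before the start site are shown, 5′ to 3′ in the direction of transcription, for the 3 called members that the table holds, because these genes fell in the same comparison. Capitals mark the GC box on either strand. Hhip (chr8:80058009-80058258, minus strand) has 2 GC boxes, Ptch1 (chr13:63565736-63565985, minus strand) has 1 and Gli2 (chr1:119053620-119053869, minus strand) has 1.
Hhip: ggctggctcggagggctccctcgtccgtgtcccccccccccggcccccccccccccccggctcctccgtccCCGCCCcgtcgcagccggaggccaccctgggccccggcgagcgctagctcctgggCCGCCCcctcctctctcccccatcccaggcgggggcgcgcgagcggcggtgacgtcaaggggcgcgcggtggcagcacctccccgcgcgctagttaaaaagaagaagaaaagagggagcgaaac
Ptch1: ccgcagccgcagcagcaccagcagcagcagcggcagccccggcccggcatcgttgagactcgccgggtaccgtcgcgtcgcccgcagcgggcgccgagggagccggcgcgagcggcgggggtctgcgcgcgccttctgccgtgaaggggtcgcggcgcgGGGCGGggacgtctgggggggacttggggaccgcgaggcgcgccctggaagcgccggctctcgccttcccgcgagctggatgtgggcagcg
Gli2: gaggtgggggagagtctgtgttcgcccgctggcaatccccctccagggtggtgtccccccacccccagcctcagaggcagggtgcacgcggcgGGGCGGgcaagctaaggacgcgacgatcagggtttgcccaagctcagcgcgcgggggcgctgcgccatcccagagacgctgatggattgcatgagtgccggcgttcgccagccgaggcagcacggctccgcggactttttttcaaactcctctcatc

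The Ptch1 stretch is part of a window with 47 CpG dinucleotides, the Hhip window holds 30 and the Gli2 window 28, against a median of 7 over all windows. Ihh, which was not called, has as many CpG dinucleotides (30) and as many GC boxes (2) as Hhip, and Gli3 and Sufu also hold GC boxes, so these features do not set the called members apart.

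Genes most alike in pattern to the called members were found by Pearson correlation over the 8 arrays, as a description. Some kinds of symbol were dropped before r was ranked, among them Gm, Rik, LOC, Mir, Snor, Olfr and Vmn names. The ranking therefore did not cover all genes. The genotype difference is part of each such r, so the r of deviations from the genotype means is given beside it. Among the 5 genes most like Hhip was Ptch1 itself (r = 0.988, and 0.946 for the deviations), besides Dstyk, Ss18, Wrn and Tbc1d19 (r = 0.983 to 0.990). For Ptch1 the list was led by Tbc1d19 (r = 0.998, deviations 0.985) and Sbf2 (r = 0.996, deviations 0.982), followed by Rab12, Dapk1 and Irf2bp2. Tbc1d19 differed by -0.57 and Sbf2 by -0.39 between genotypes. For Gli1 the genes were Sod1, Cdip1, Cyp26b1, Nfix and Dmpk (r = 0.986 to 0.992). For Gli2 they were Bmp4 (r = 0.992, deviations 0.856), which encodes a secreted signalling protein, Ccdc3, Mpc1, Reep5 and Pygo1 (r = 0.985 to 0.992). Hhip and Ptch1 thus had similar deviations on these 8 arrays. Female WT 2 stood above its genotype mean by 0.73 in Hhip and 0.13 in Ptch1, and male null 2 at -0.44 and -0.13. Gli1 did not share this order: female WT 2 stood at -0.02 and male null 2 at -0.02 from their means, and the deviations of Gli1 and Hhip correlated at 0.052. The deviations of Ihh, a gene close to background, correlated with those of Hhip at -0.913. Female WT 2 also had the highest negative control median (4.46). As the genes were picked by highest r on 8 arrays, shared variation between mice is not established.

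Other genes of the pathway fell or did not pass the test, and none rose. Of 53 measured genes in 5 further lists, 12 fell (22.6%) and 0 rose in the limma fit, where 23 had an unadjusted p under 0.05. Of all genes 5.98% were called lower and 7.07% higher, and 9.84% lower among genes above the negative controls. The median difference of the 53 was -0.12, against 0.01 over all genes. The lists were drawn up with the fall of Hhip already known. Without single arrays the count of 12 dropped to 5 without female null 1, to 6 without male WT 1, male null 2 or female null 2, and to between 9 and 11 without each of the others. Scube2, Gpc3, Efcab7, Ccnd2 and Bmp4 kept the call without each array in turn, and the other 7 lost it without at least 1.

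Among other genes of ligand production and release, 1 of 8 fell (12.5%, beside 5.98% of all genes). Scube2, which encodes a secreted protein that carries lipid-modified ligand off the cell, fell by 0.41, from 4.71 to 4.30 (SE 0.06, adjusted p = 0.0024); its null mean lay among the negative control medians, so the size is not exact. Disp1, the transporter that exports ligand, differed by the same -0.41, but its spread was larger (SE 0.14, adjusted p = 0.0933). Dhh, the Hedgehog ligand of Schwann cells, differed by 0.02 and Hhat, the acyltransferase that adds palmitate to the ligands, by -0.03.

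Of 6 measured receptors and co-receptors, 3 fell (50%, beside 5.98% of all genes). Gpc3, a cell-surface glypican that competes with Ptch1 for ligand, fell from 6.28 to 5.52 (difference -0.75, SE 0.12, adjusted p = 0.00554). The co-receptor genes Boc and Gas1, whose proteins present ligand to Ptch1, fell by 0.31 (adjusted p = 0.0203) and 0.28 (adjusted p = 0.037). Cdon, a close relative of Boc, differed by -0.75 and missed the threshold (SE 0.22, adjusted p = 0.0522), with overlapping arrays. Boc was not called when either female null array, male WT 1 or male null 2 was left out (adjusted p 0.0602 to 0.071), and Gas1 without any array except female WT 2 (adjusted p 0.0543 to 0.117). With same-numbered mice as pairs Gas1 stood at adjusted p = 0.0505.

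Of 13 genes of the cilium and of Smo transduction 1 fell (7.69%), a share near the 5.98% of all genes, so the calls give no result about the list. This was Efcab7, whose protein anchors the Evc complex at the base of the cilium (-0.32, SE 0.06, adjusted p = 0.01). Both its means, 4.51 in WT and 4.19 in null skin, lay close to the negative control medians, so the size is not exact. The ciliary kinesin gene Kif7 differed by 0.02 and the Smo partner genes Evc and Evc2 by -0.23 and -0.06, none called. Other settings gave 0 to 2 calls in this list. Of its 13 differences, 11 were under 0 (84.6%, beside 45.3% of all genes), with a median of -0.12. The list means were 5.57 to 5.64 in WT and 5.48 to 5.50 in null arrays and did not overlap.

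Of 13 genes of Gli processing, 3 fell (23.1%, beside 5.98% of all genes) and 0 rose. Btrc, the substrate receptor of a ubiquitin ligase that acts on Gli3, fell by 0.25 (adjusted p = 0.0373). Prkaca and Prkacb, the catalytic subunits of protein kinase A, fell by 0.20 (adjusted p = 0.0412) and 0.22 (adjusted p = 0.045). All 3 lie near the threshold. Prkaca lost the call without each array in turn (adjusted p 0.0617 to 0.129), Prkacb without any except male null 1 (0.0662 to 0.141), and Btrc without either female null array, female WT 1, male null 2 or male WT 1 (0.0762 to 0.12). The arrays of 6 of the 13 genes did not overlap, beside 18.9% of all genes. Among these, Csnk1a1 and Fbxw11, a casein kinase and a ligase subunit, had higher null arrays, with differences of 0.18 and 0.15. The kinase gene Gsk3b had lower null arrays, with a difference of -0.18. None of the 3 was called.

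Of 13 other genes reported as Gli targets, 4 fell (30.8%, beside 5.98% of all genes) and 0 rose. Bmp4 fell from 7.52 to 6.60 (difference -0.92, SE 0.08, adjusted p = 0.00025) and Ccnd2, a cyclin of G1 phase, from 8.54 to 7.88 (-0.66, SE 0.10, adjusted p = 0.00351). Sfrp1, a secreted Wnt antagonist, fell by 0.49 (adjusted p = 0.0319) and Jag2, a Notch ligand, by 0.29 (adjusted p = 0.0143). The other 9 did not pass, among them Foxf1 (0.10), Mycn (-0.05), Snai1 (-0.00) and Sox9 (0.05). Sfrp1 lost its call without any array except female WT 1 (adjusted p 0.0548 to 0.0933) and Jag2 without female null 1 (0.0502). Many genes of this list also answer to other pathways.

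**Figure D3:**
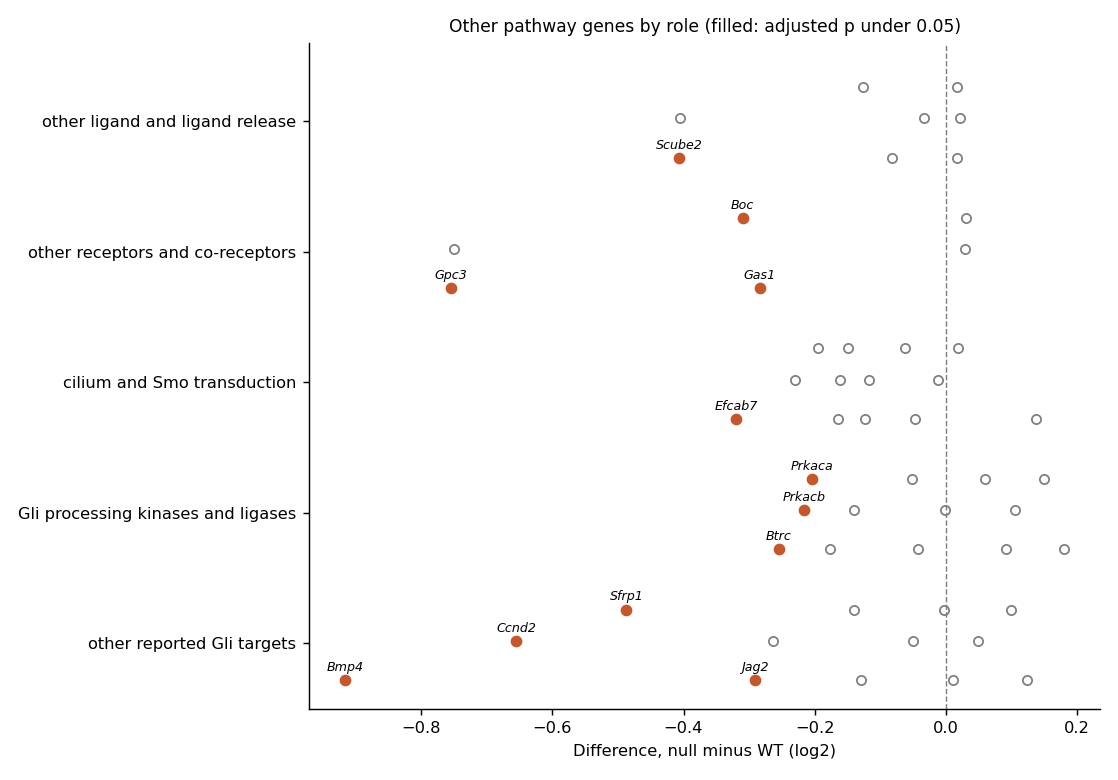
Difference between genotypes (null minus WT, log2, horizontal axis) of the genes in each further pathway list, 1 point per gene; filled points passed an adjusted p of 0.05 and are named, and the vertical offset inside a list has no meaning. All filled points lie under 0, from Bmp4 at -0.92 to Prkaca at -0.20.

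Markers of some tissue parts, but not of all, also fell in this comparison. Skeletal muscle genes fell in 14 of 16 (87.5%, beside 5.98% of all genes), with a list mean of 8.93 to 9.67 in WT and 8.12 to 8.68 in null arrays. Of these 14 calls 8 were kept without male null 2 or female null 1, 9 without male WT 1 and 10 to 14 without each other array. Sebaceous gland genes fell in 6 of 11 (54.5%), among them Mc5r (-0.96) and Far2 (-0.73), with list means of 6.51 to 7.07 against 6.29 to 6.42. Mc5r and Far2 kept their calls without each array in turn, but of the 6 calls only these 2 were kept without male null 2, 3 without either male WT array or female null 2, and 4 to 6 without each other array. The list means of muscle and sebaceous genes did not overlap between genotypes. Dermal fibroblast genes fell in 2 of 11 (18.2%, Dpt by 0.86 and Dcn by 0.83), and their list means overlapped, at 7.57 to 8.01 and 7.42 to 7.80. Of 17 hair follicle genes 1 fell (Lhx2, by 0.35), which is 5.88%, near the share of all genes. All 17 had differences under 0 with a median of -0.64, and 8 had an unadjusted p under 0.05 in limma. The list means were 7.08 to 8.38 in WT and 7.02 to 7.74 in null arrays. Their overlap came from female WT 1 (7.08), as the other WT arrays had 7.99 to 8.38. Dpt and Dcn each lost the call without at least 1 array, in 6 of 8 such tests.

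Of 9 Schwann cell genes 1 fell (Pmp22, by 0.47) and 8 were not called. That is 11.1%, beside 5.98% of all genes and 9.84% of those above the negative controls. Cartilage and bone genes were called in 0 of 14, and 0 of them had an unadjusted p under 0.05 in limma. Of sweat gland genes 1 of 12 rose (Scnn1a, by 0.42), 8.33% beside 7.07% of all genes. Of 10 vascular genes Pecam1 rose by 0.27 and Des, also a muscle gene, fell by 0.57. That is 10% in each direction, beside 7.07% and 5.98% of all genes, and these calls were lost in 5 and 4 of 8 fits without 1 array. Of 7 Merkel cell genes 1 rose (14.3%, beside 7.07% of all genes), Piezo2 by 0.21, a call lost without each array in turn. T cell genes rose in 2 of 6 (33.3%, beside 7.07% of all genes). Their list means were 3.72 to 3.87 in WT and 4.05 to 4.21 in null arrays, all under the negative control medians. The called genes were Icos (by 1.22) and Cd3g (by 0.20, lost in 7 of 8 fits without 1 array). The WT mean of Icos (3.73) and both means of Cd3g (3.66 and 3.87) lay under those medians, so neither size is exact. The part of these lists in the members' falls was not tested, and no covariate fit was made with them.

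**Figure D4:**
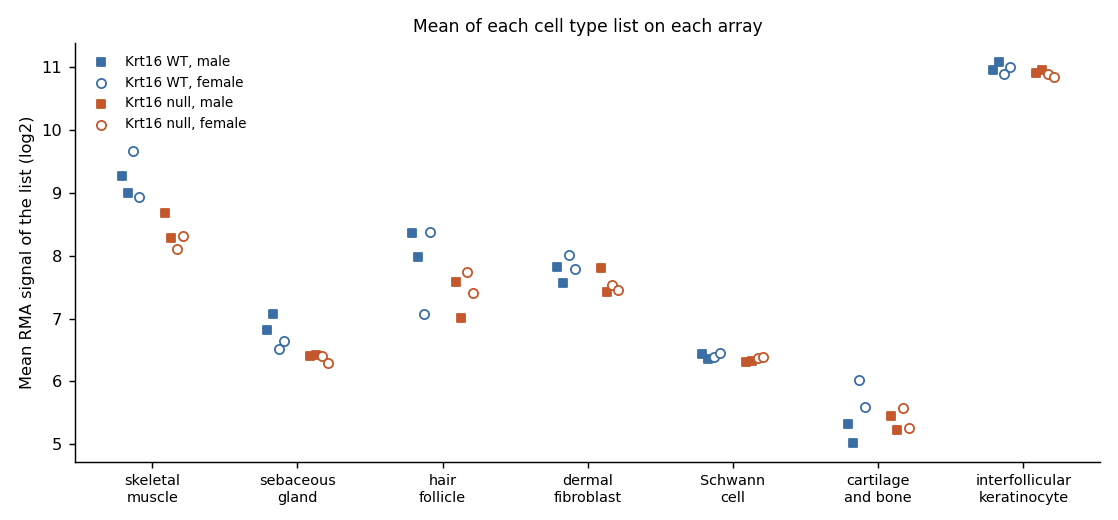
Mean RMA signal (log2, vertical axis) of the marker list of each tissue part on each array, WT in blue and null in orange, filled squares for males and open circles for females. Every null point lies under the WT points for skeletal muscle and sebaceous gland, while the genotypes overlap in the other 5 lists drawn.

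With a list mean added as a covariate, the differences of the called members stayed under 0 and their errors grew. The estimates with the muscle and the sebaceous list are imprecise, as both lists share much of the genotype term. The part of any of these tissues in the members' falls was not tested. With the skeletal muscle list, where 74.9% of the variance of the genotype term is shared with the list and sex, Hhip differed by -1.46 (SE 0.42), Ptch1 by -0.34 (SE 0.14), Gli1 by -0.26 (SE 0.11) and Gli2 by -0.27 (SE 0.11), and 0 of 9 members were called in limma while 4 had an unadjusted p under 0.05. With the sebaceous list (75.4% shared) the same 4 genes differed by -1.49, -0.42, -0.54 and -0.35, again with 0 called and 4 at an unadjusted p under 0.05. With the hair follicle list all 4 were called, at -1.17, -0.32, -0.39 and -0.28. With the dermal fibroblast list Hhip (-1.19, adjusted p = 0.0327) and Gli1 (-0.32, adjusted p = 0.0321) were called and Ptch1 (-0.30, adjusted p = 0.0702) and Gli2 (-0.28, adjusted p = 0.0524) were not.

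The further pathway genes moved differently with the muscle and the sebaceous list, and their errors grew. Because these lists share 74.9% and 75.4% of the genotype term, the estimates are imprecise. The part of either tissue in these falls was not tested. With the muscle list Gas1 went from -0.28 to -0.04 (SE 0.12) and Boc from -0.31 to -0.08 (SE 0.11). Btrc went from -0.25 to -0.03 (SE 0.11) and Gpc3 from -0.75 to -0.49 (SE 0.23), and none of these genes was called. With the sebaceous list the same genes moved the other way, also not called. They stood at -0.41 (SE 0.15) for Gas1, -0.55 (SE 0.12) for Boc, -0.43 (SE 0.13) for Btrc and -1.002 (SE 0.24) for Gpc3. With the hair follicle list they stood at -0.37, -0.35, -0.28 and -0.69 in that order, all called but Btrc. The fibroblast list gave -0.24, -0.19, -0.15 and -0.55, with only Gpc3 called. Prkaca and Prkacb stood at -0.12 and -0.11 with the muscle list and at -0.28 and -0.33 with the sebaceous list. Sfrp1 and Ccnd2 did the reverse: the muscle list gave -0.97 (adjusted p = 0.0401) and -0.83, and the sebaceous list -0.29 and -0.45. Jag2 likewise had -0.36 and -0.20. Bmp4 was -0.78 with the muscle list and -0.998 (adjusted p = 0.0293) with the sebaceous list. Scube2 (-0.42 and -0.33) and Efcab7 (-0.34 and -0.29) moved less. Sfrp1 with the muscle list and Bmp4 with the sebaceous list were the only calls among the 12 genes in these 2 fits.

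**Figure D5:**
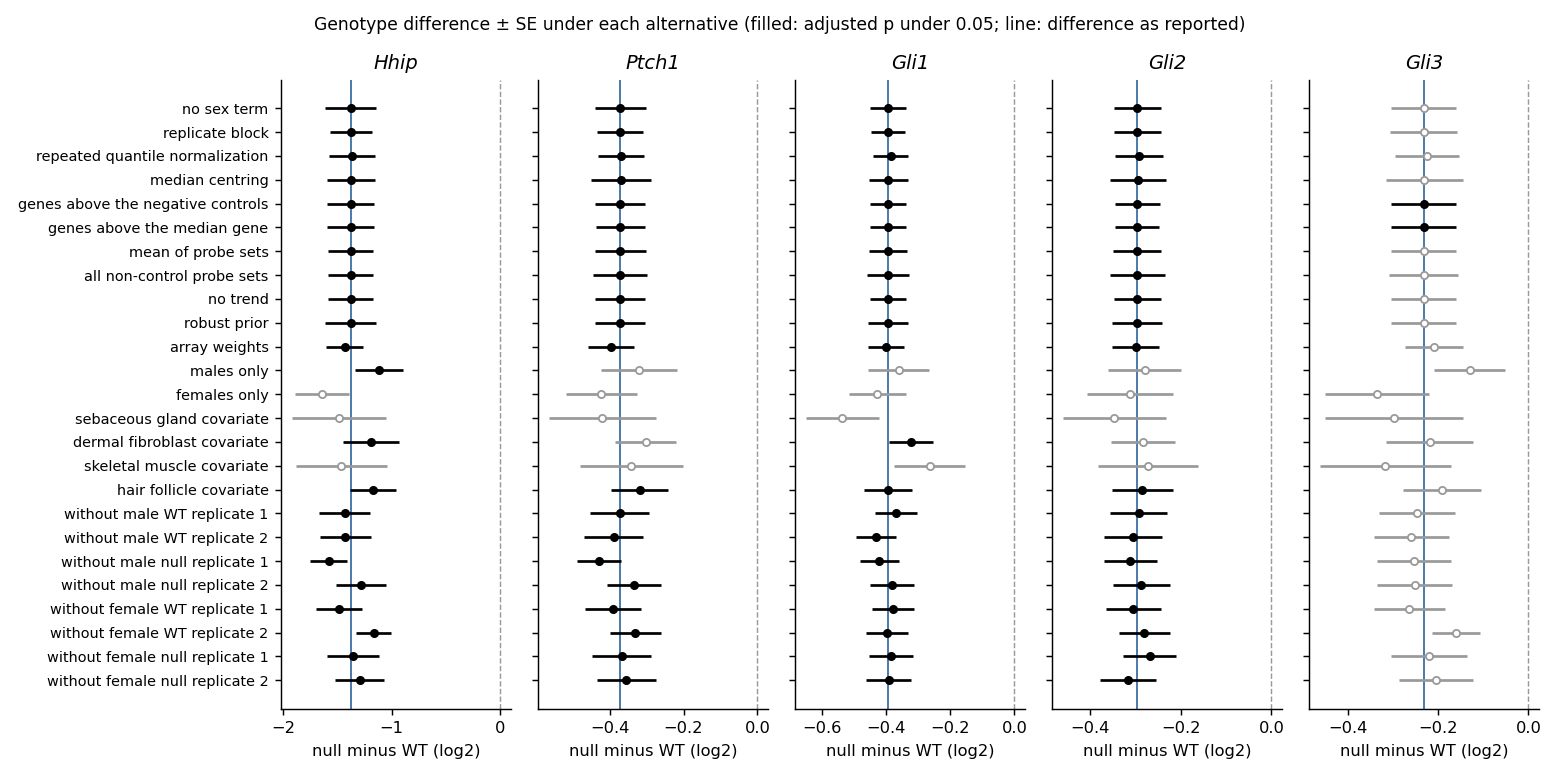
Genotype difference (null minus WT, log2, horizontal axis) ± SE of Hhip, Ptch1, Gli1, Gli2 and Gli3 under each alternative named at the left, filled where the adjusted p was under 0.05; the blue line marks the reported difference. All points lie under 0. Hhip, Ptch1, Gli1 and Gli2 all lose their calls in females only and with the muscle or sebaceous covariate; Ptch1, Gli1 and Gli2 also lose theirs in males only, and Ptch1 and Gli2 with the fibroblast covariate.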

How the data were processed

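Forepaw skin RNA of 8 mice was measured on single-colour Affymetrix arrays after labelling with the WT PLUS kit. The deposited values, 1 per probe set and array, run from 1.36 to 13.6 and are log2 signals; Partek and RMA are named in the submitters' processing notes. Their versions, the genome build and the annotation were not given in the sources used here. RMA compresses large changes, and the number of arrays limits the precision.

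Of 72688 probe sets, 6732 controls were left out. The array annotation lists 32750 of the rest. Once symbols were updated through a RefSeq table (GRCm38.p6), 31258 had 1 gene, which gave 30702 genes; the brightest probe set stood for a gene with several. Probe sets of several genes were not named. Of the pathway genes listed, 53 were analysed here. Negative control medians of the arrays were 4.26 to 4.46.

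limma 3.58.1 under R 4.3.3 (lmFit, eBayes with trend, sex as covariate) tested each gene, adjusted over all genes, and the code was tested on simulated data. Tables and figures used Python 3.11.15, pandas 2.3.3 and matplotlib 3.10.9. The members and lists were chosen with earlier results of these data known. The genes named are all members, up to 3 falls and 3 rises of largest size among the called genes of each pathway list, at most 2 called genes of each cell type list, and the 5 genes of highest r with each called member. For the last, some kinds of symbol were dropped before ranking, as stated with the correlations, so not all genes were ranked. Disp1, Dhh, Hhat, Cdon, Kif7, Evc, Evc2, Csnk1a1, Fbxw11, Gsk3b, Foxf1, Mycn, Snai1, Sox9, Jag2 and Krt16 fall outside that rule and were chosen after their values were seen.

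Deviations of WT and null mice of the same sex and number correlated across genes at 0.316 in males and 0.115 in females. With 2 mice a group both pairs of a sex have the same value, so these values do not establish that such mice deviate together. The 4 pairs entered an alternative fit as a block. A shared litter or day is not stated in the labels.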

Additional observations from a re-analysis of the deposited data

Results flagged for a closer look

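Among 50 groups of 4 arrays examined (9 members and 16 list means in each genotype), 2 held an array far from the other 3, about as many as 1 in 20 would give. The mean of the cilium and Smo transduction list was 5.64 in male WT 1, above 5.57 to 5.58 in the other WT arrays. The mean of the sebaceous gland list was 6.29 in female null 2, under 6.40 to 6.42 in the other null arrays. None of the 18 groups of single members held such an array.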

How the results depend on the processing

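The count of 4 members called lower was also 4 without each array in turn, with the replicate block (Hhip -1.38, adjusted p = 0.00514), without the sex term, after repeated quantile normalization or median centring, when probe sets of a gene were averaged or all probe sets tested, with array weights, a robust prior or no trend, and with the hair follicle covariate. It was 5 with either filter on dim genes. It was 1 in males only and 0 in females only (unadjusted p under 0.05 for 4 and 5 members in limma), with 2 arrays a group, whereas a fit of all 8 arrays with a difference for each sex called Hhip and Gli1 in females and neither in males. It was 0 with the muscle covariate. With covariates chosen after seeing the data it was 0 (sebaceous gland) and 2 (dermal fibroblast). Members called higher were 0 in each of these fits, and no called member changed direction. The interaction was called for 0 of 9 members without a trend, with a robust prior and without each array in turn. The block of pairs changed the call of no member, and among the 12 further pathway genes that of Gas1 alone. The count of 12 was 3 in males only, 2 in females only, 1 with the muscle or sebaceous covariate and 6 with the fibroblast covariate; 1 further pathway gene was called higher with genes above the median gene.

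Over all genes 2170 were called higher and 1837 lower. These counts were 802 and 388 in males only, 231 and 142 in females only, 190 and 76 with the muscle covariate, 268 and 289 with the sebaceous and 1238 and 657 with the fibroblast covariate. They were 1311 and 1075 without male WT 1, 1209 and 849 without male null 2, 1230 and 843 without female null 1, and 1725 and 1112 without female null 2. Signals near the negative controls limit Shh, Ihh and the size of the fall of Hhip, and signals within the range of the brighter negative controls limit that of Gli1. The p-values cover the spread between these littermate mice only.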
